A study of Rattus norvegicus with 19 samples.

Results

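Receptors for transforming growth factor beta (TGF-β) were blocked while albumin was applied to the rat cortex, and 4 arrays of albumin plus blockers were compared with 3 arrays of albumin alone. These 7 arrays, of 19 in the series, were chosen by their titles: all come from the second of 2 sets of arrays and were taken at 24 h. The animals were adult male Wistar rats whose exposed somatosensory cortex was perfused with artificial cerebrospinal fluid carrying the agents. In the group with albumin plus blockers, the blockers were an antibody against the type 2 TGF-β receptor (50 µg/ml) and SB431542 (100 µM), a small molecule that inhibits the kinase of the type 1 receptor. In the albumin group, bovine serum albumin was given at 0.1 mM; the albumin dose of the blocker group is not stated separately in the labels. Both groups shared the surgery, and 2 sham-operated rats of the same set are given beside them. Each array is a separate animal per the design text. No sham rat received the blockers and no group received their vehicle, so an action of the blockers by themselves and a changed response to albumin cannot be told apart. The antibody and SB431542 were given together, so neither agent's share can be told apart from the other's. In cortex, which mixes cell types, a lower signal can mean fewer cells of a type or less RNA per cell, and these cannot be told apart.

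TGF-β is a secreted cytokine that binds a type 2 receptor, which then activates a type 1 receptor kinase. That kinase phosphorylates SMAD2 and SMAD3, which join SMAD4, enter the nucleus and act on target genes together with other factors such as AP-1. SB431542 inhibits the type 1 receptors of TGF-β, activin and nodal and spares those of the bone morphogenetic proteins (BMPs), which signal through SMAD1, SMAD5 and SMAD9. When the blood-brain barrier opens, serum albumin reaches the brain, where astrocytes take it up, and TGF-β receptors are known to take part in the response.

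Values are log2 signals, so a difference of 1 is 2-fold. Of 14217 genes, 10329 were tested, those with a log2 signal above 4 on at least 2 of the 9 arrays of set 2. The arrays were alike in scale, with medians of 6.11 to 6.18 in the blocker group, 6.07 to 6.15 in the albumin group and 6.05 to 6.11 in sham. Albumin replicate 2 stood apart from the rest: its median correlation with the other set 2 arrays was 0.981, against 0.992 to 0.996 for the other 8. Its actin 3'-minus-5' signal difference, a gauge of RNA integrity, was the lowest at 1.84, against 1.93 to 2.22 on the others. Without albumin replicate 2, 42 of the 156 genes chosen for naming moved in their difference by over 1.5 times, against 16 without albumin replicate 1 and 17 without replicate 3. For genes whose values are discussed, several of these moves are given beside the difference. Of the tested genes, 40 were above 4 on albumin arrays alone. They entered the test through the group in which they are high, so their differences are descriptions. Neuronal markers were strongly expressed on all arrays (mean of 18 genes 12.5 to 12.6 in the blocker group, 12.1 to 12.7 in the albumin group and 12.5 in both shams), as was the astrocyte marker Gfap.

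With blockers added, 2 genes fell past the threshold, Rgs16 and Chdh, and none rose (limma, adjusted p under 0.05 over all genes tested). That is 0.0194% of the tested genes lower and 0.0% higher. Many more genes stood apart between the groups without passing. At an unadjusted limma p under 0.05, 934 genes (9.04%) were lower and 781 (7.56%) higher. On 900 genes (8.71%) all 4 blocker arrays lay below all 3 albumin arrays, and on 756 (7.32%) all lay above. The median difference over all tested genes was -0.003, and 50.6% of genes lay below 0. Larger differences leaned to the lower side: 146 non-overlapping genes were at least 2-fold lower and 91 at least 2-fold higher, while 45 were at least 4-fold lower and 15 higher, and 14 were at least 8-fold lower and 2 higher.

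Rgs16, which speeds the switching-off of G proteins, had log2 signals of 5.24, 5.25, 5.61 and 5.24 with blockers, against 6.94, 6.52 and 6.65 with albumin alone, and 4.80 and 4.78 in sham. The groups did not overlap, and 3 of the blocker arrays were nearly equal. Rgs16 fell by 1.37 ± 0.14 (SE, n = 4 and 3; limma adjusted p = 0.0354). In set 1, which entered no part of this test, Rgs16 stood 2.28 above the lone sham array with albumin at 24 h and 0.93 above it with TGF-β1 at 24 h. Rgs16 lies on chromosome 13.

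Chdh, the mitochondrial choline dehydrogenase that makes betaine aldehyde from choline, had 3.46, 3.44, 3.43 and 3.22 with blockers, against 4.29, 4.37 and 4.30 with albumin and 3.48 and 3.49 in sham. The blocker arrays sat at or just below the sham level. Chdh fell by 0.93 ± 0.09 (SE, n = 4 and 3; limma adjusted p = 0.0354). All of its blocker and sham signals lay below 4, so it entered the test through the albumin arrays. Chdh lies on chromosome 16, and in set 1 it stood 0.42 above sham with albumin and 0.14 above with TGF-β1 at 24 h.

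For each of these genes an exact two-sided permutation test over the 7 arrays gave p = 0.0571, the smallest that its 35 assignments allow. Among the alternatives of the fit, Chdh passed the threshold in 10 of 18 and Rgs16 in 9 of 19, with adjusted p from 0.0193 to 0.188 and from 0.0196 to 0.188. Both lost the call on the 7 arrays alone (limma adjusted p = 0.104 for each) and when a sham array, or blocker replicate 1, 2 or 4, was left out. Since Chdh entered the test through the albumin arrays, its values here describe it and do not support its call.

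The 250 bases before a start site of both genes are shown because they are the genes past the threshold. Gpr34, which had the second smallest p among the higher genes, is shown too. Wfdc1, with the smallest, is named only. All come from RefSeq on assembly GRCr8, 5′ to 3′ on the gene's strand, and capitals mark motif matches. The window of Rgs16 is chr13:68437870-68438119 (+), that of Chdh is chr16:5200551-5200800 (+) and that of Gpr34 is chrX:11785837-11786086 (-). The Chdh and Gpr34 windows lie inside those genes, which span chr16:5199738-5232067 and chrX:11777667-11786640. The start sites used for them are therefore not the genes' outermost ones.
Rgs16: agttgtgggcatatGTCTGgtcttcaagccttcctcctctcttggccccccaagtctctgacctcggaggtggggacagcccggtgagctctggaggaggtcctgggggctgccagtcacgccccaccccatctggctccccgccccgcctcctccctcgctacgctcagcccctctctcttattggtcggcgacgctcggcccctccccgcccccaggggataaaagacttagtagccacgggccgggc
Chdh: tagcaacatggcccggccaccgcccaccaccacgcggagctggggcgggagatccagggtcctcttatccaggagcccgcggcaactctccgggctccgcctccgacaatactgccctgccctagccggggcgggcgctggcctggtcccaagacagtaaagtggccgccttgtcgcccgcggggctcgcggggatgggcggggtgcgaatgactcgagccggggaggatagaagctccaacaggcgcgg
Gpr34: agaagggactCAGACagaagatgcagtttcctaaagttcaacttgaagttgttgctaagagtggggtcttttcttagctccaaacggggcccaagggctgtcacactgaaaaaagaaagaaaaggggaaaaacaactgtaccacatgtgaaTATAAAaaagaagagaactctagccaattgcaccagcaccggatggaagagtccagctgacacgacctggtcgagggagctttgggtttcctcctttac
The search covered CAGAC (the SMAD box), TGANTCA (AP-1), TGACGTCA (CRE), TTCNNNGAA (STAT) and the core promoter element TATAAA, each on both strands. Rgs16 held 1 SMAD box, as its reverse complement, with its first base at position -236 from the start site used. Gpr34 held 1 at position -240 and the core element at position -99. Chdh held none of the motifs. A SMAD box occurred in 42.8% of 27457 rat promoters of this length, the core element in 13.1%, a STAT site in 7.5%, an AP-1 site in 6.4% and a CRE in 1.7%. Among the 8661 promoters of tested genes, the shares in the same order were 40.8%, 6.1%, 5.6%, 4.0% and 3.2%. The matches describe these windows and show no binding.

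**Figure D1:**
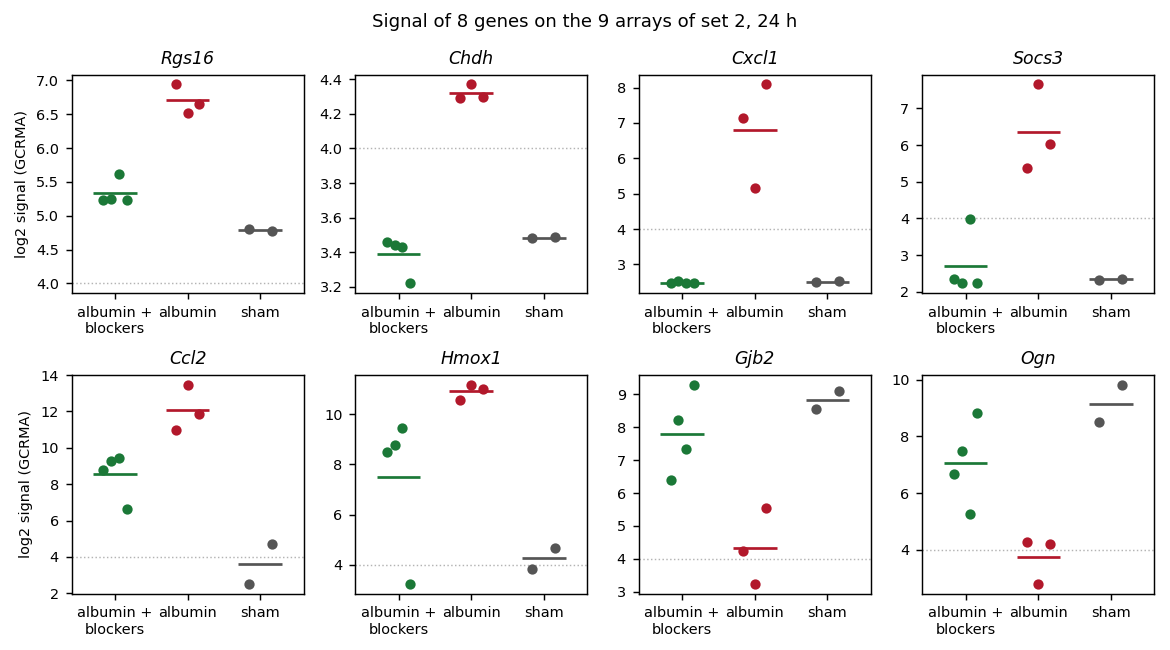
Log2 signal (vertical axis) on each array of albumin plus blockers (4), albumin (3) and sham (2) for 8 genes, with group means as lines and the test's filter level of 4 as a dotted line; panels have their own scales. Rgs16 and Chdh passed the threshold. The blocker arrays of Cxcl1 sit at 2.46 to 2.52, while Hmox1 has 1 blocker array at 3.24 and 3 at 8.51 to 9.46.

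Set 1 allowed genes that stood apart with each agent to be chosen on arrays that enter no value of blockers minus albumin. Among 9841 genes tested in both sets, 466 were at least 2-fold above the sham on the albumin array of set 1 at 24 h. Of these 466, 419 (89.9%) lay below 0 in blockers minus albumin, with 225 lower and 6 higher at an unadjusted limma p under 0.05. Of all 9841 genes, 886 were lower and 756 higher at that level, the background for each list chosen on set 1 arrays. The median of the 466 was -0.77, against -0.001 over the 9841. Without albumin replicate 2 it was -0.62, with 399 below 0. Over the same genes the median difference from sham in set 2 was 0.42 with blockers and 1.17 with albumin alone.

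The 249 genes at least 2-fold lower with albumin in set 1 leaned the other way. Their median was 0.65, with 212 above 0 and 106 higher against 4 lower at an unadjusted p under 0.05. Here albumin replicate 2 weighed more, and the median without it was 0.35, with 203 above 0.

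Genes chosen by TGF-β1 itself were also tracked, since TGF-β1 is a ligand of the blocked receptors. Of 260 genes at least 2-fold higher with TGF-β1 at 24 h in set 1, 211 (81.2%) lay below 0 in blockers minus albumin, with 102 lower and 11 higher at an unadjusted p under 0.05, and the median was -0.72. For 121 genes at least 2-fold lower with TGF-β1, 83 lay above 0 and the median was 0.42, or 0.16 without albumin replicate 2. Taken only where TGF-β1 held a gene 2-fold lower at 8, 24 and 48 h, the 27 genes left had a median of -0.15. The albumin and TGF-β1 choices share the single set 1 sham array, so they are not independent of each other.

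**Figure D2:**
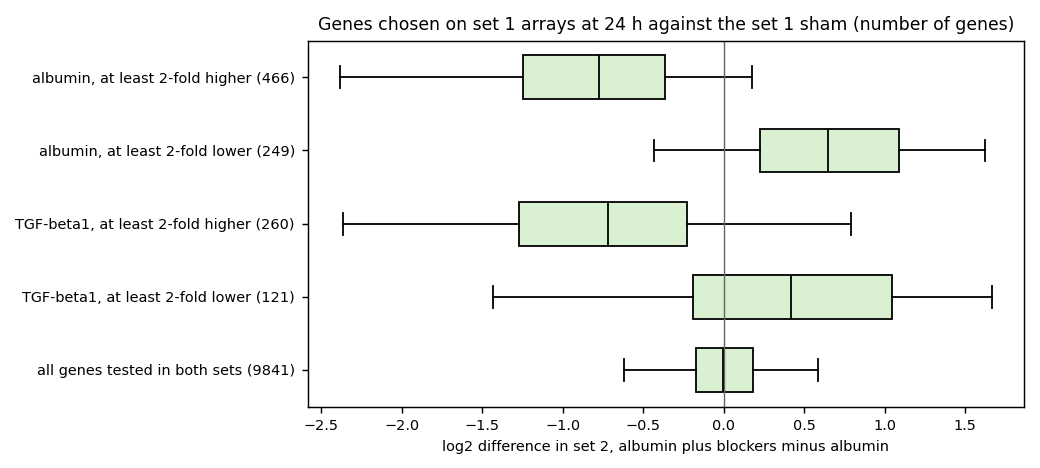
Log2 difference of albumin plus blockers minus albumin in set 2 (horizontal axis) for genes chosen on set 1 arrays against the set 1 sham, and for all 9841 genes tested in both sets. Boxes span the quartiles with the median as a line, and whiskers run from the 5th to the 95th percentile of genes. The medians of the genes higher with albumin or TGF-β1 are -0.77 and -0.72, against -0.001 for all genes.

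Among the TGF-β family's own ligands, Tgfb2 was lower with blockers on every array. Its signals were 8.35, 8.18, 8.82 and 8.71 with blockers, against 9.69, 10.25 and 9.07 with albumin and 8.26 and 8.00 in sham, a difference of -1.15 ± 0.27 (SE; limma adjusted p = 0.149). Tgfb1, the ligand used in set 1, overlapped between groups, at 5.26 to 6.91 with blockers, against 6.31 to 7.97 with albumin (difference -0.79 ± 0.47, or -0.27 without albumin replicate 2 and -0.49 without blocker replicate 4). Bmp6, a BMP ligand, was higher with blockers at 8.10, 9.01, 8.24 and 8.79, against 7.25, 7.38 and 7.79 with albumin (1.06 ± 0.24). Of 16 tested members of the ligand and latent-complex list, 2 were lower and 2 higher at an unadjusted p under 0.05, or 12.5% each way. Those shares lie near the 9.04% lower and 7.56% higher of all tested genes. The list's median of -0.09 was 0.001 without albumin replicate 2.

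The targeted receptors themselves gave little to compare. Tgfbr2, bound by the antibody, has no probe set that names it alone. Tgfbr1, the kinase that SB431542 inhibits, had 9.55, 9.45, 8.80 and 9.89 with blockers, against 8.81, 9.93 and 9.15 with albumin (difference 0.12 ± 0.31), and the groups overlapped. Its probe measures RNA, not kinase activity. Eng (endoglin), a TGF-β co-receptor of endothelium, stood apart, with 6.44, 6.47, 6.45 and 5.72 with blockers, against 7.32, 7.37 and 7.52 with albumin and 6.01 and 6.27 in sham. Its difference was -1.13 ± 0.19 (limma adjusted p = 0.0992). Acvr2a, a type 2 activin receptor, was 7.67 to 7.97 with blockers, against 8.26 to 8.54 with albumin. In all, 3 of 11 tested receptors (27.3%) were lower and 0 higher at an unadjusted p under 0.05. The shares over all tested genes were 9.04% and 7.56%. None of the 11 passed the adjusted threshold.

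On the probe sets used, signal transducers differed by small amounts. Smad4, the shared partner, was 9.47 to 9.65 with blockers, against 9.65 to 10.17 with albumin (-0.32 ± 0.13, or -0.18 without albumin replicate 2). Smad7, an inhibitory SMAD induced by TGF-β, had 8.19, 8.05, 7.83 and 8.33 with blockers, against 8.33, 8.81 and 8.34 with albumin, so the groups met at 8.33 (-0.40 ± 0.16, or -0.24 without albumin replicate 2). A second Smad7 probe set differed by more, at 4.60 with blockers, against 5.61 with albumin (-1.02). The third was level, at 2.38 and 2.39. Smad2 (-0.29 ± 0.20) and Smad3 (0.38 ± 0.35) overlapped between the groups, and were -0.14 and 0.06 without albumin replicate 2. The list of SMADs, corepressors and ubiquitin ligases had 4 of 17 members (23.5%) lower and 1 (5.88%) higher at an unadjusted p under 0.05. All tested genes gave 9.04% and 7.56%. The median of the 17 was -0.20. The list had 2 lower and 0 higher without albumin replicate 2, with a median of -0.10.

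Genes known to be induced by TGF-β split: of 20 tested, 8 (40.0%) were lower and 4 (20.0%) higher at an unadjusted p under 0.05. All tested genes gave 9.04% and 7.56%. Tgfbi, a matrix protein named for its induction by TGF-β, was 5.54, 6.37, 6.58 and 5.78 with blockers, against 5.89, 10.39 and 9.02 with albumin, where albumin replicate 1 lay within the blocker range (-2.36 ± 0.90, or -3.64 without albumin replicate 1 and -1.39 without replicate 2). Junb (-1.80 ± 0.39), the cell-cycle inhibitor Cdkn1a (-1.22 ± 0.38, or -0.79 without albumin replicate 2) and fibronectin, Fn1 (-0.64 ± 0.15), were lower on all blocker arrays. For Cdkn1a the groups all but met, at 6.37 on blocker replicate 3 and on albumin replicate 3. The 4 higher genes were Lox, Col1a1, Col1a2 and Col3a1, which build and cross-link fibrillar collagen; the 3 collagens are also markers of the meninges. Col3a1 was 7.95, 9.31, 8.75 and 9.45 with blockers, against 7.18, 5.81 and 7.53 with albumin and 9.80 and 9.51 in sham. Ccn2, another classical target, was level, at 11.1 to 11.5 in both groups (difference -0.03 ± 0.14). The median of the list was -0.56, and without albumin replicate 2 it was -0.24, with 5 lower and 4 higher.

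BMP-induced genes were listed apart, because SB431542 spares the BMP receptors. Id4, which keeps basic helix-loop-helix factors from DNA, had 10.56, 10.58, 9.83 and 10.48 with blockers, against 9.48, 9.25 and 9.50 with albumin and 10.76 and 10.51 in sham (0.96 ± 0.19; limma adjusted p = 0.116). The groups did not overlap, and blocker replicate 3 was the lowest of its group. Id1 (0.14 ± 0.15) overlapped, as did Id3 (0.30 ± 0.13). Of 8 tested members, 3 (37.5%) were higher and 0 lower at an unadjusted p under 0.05, against 7.56% and 9.04% of all tested genes. The median of 0.22 for the 8 was 0.15 without albumin replicate 2, with 2 higher.

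**Figure D3:**
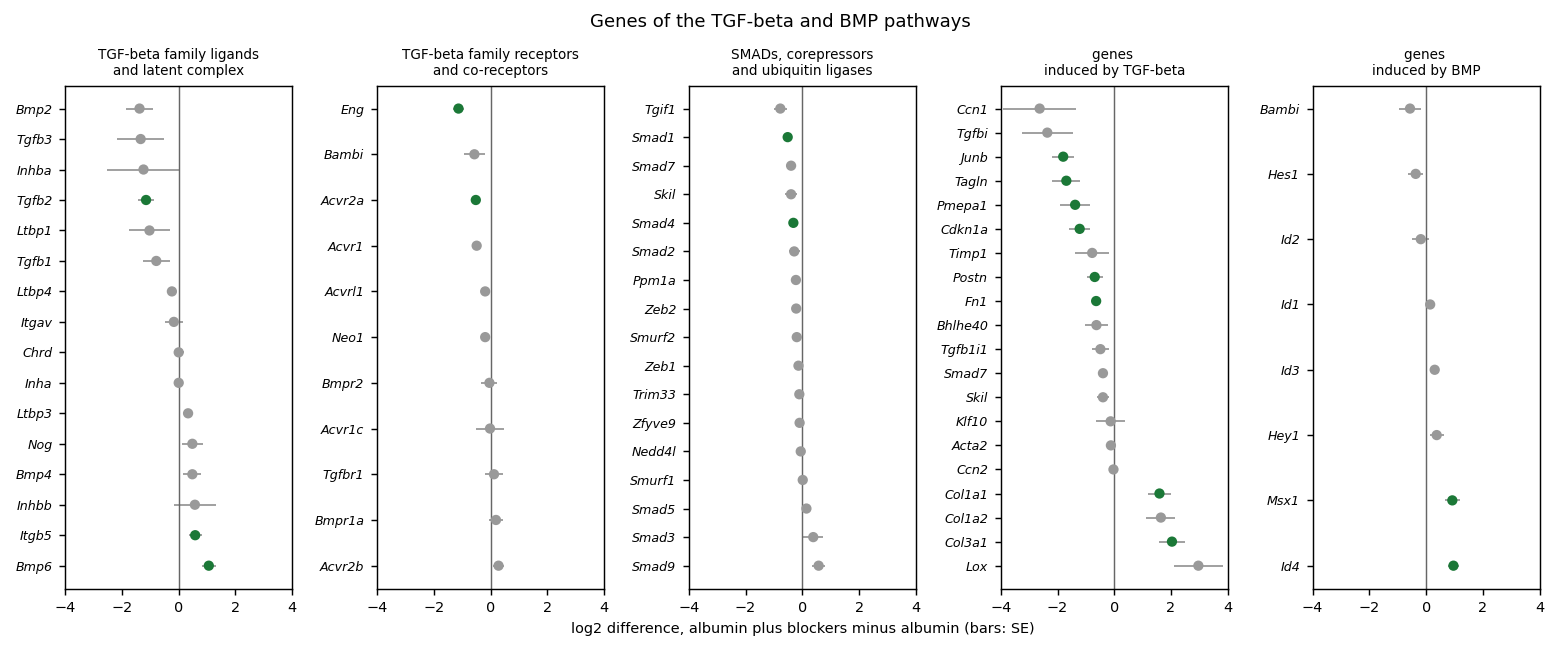
Log2 difference of albumin plus blockers minus albumin (horizontal axis, bars are SE) for each tested gene of 5 lists of the TGF-β and BMP pathways. Green points are genes whose blocker and albumin arrays do not overlap, and grey points overlap. Lox and the 3 collagens stand to the right among the TGF-β-induced genes, and none of the genes shown passed the adjusted threshold.

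Chemokines were among the genes with the largest negative differences. Among non-overlapping genes with an unadjusted limma p under 0.05, the 12 largest were those of Cxcl1, Fosl1, Ccl7, Socs3, Ccl2, Sdc1, Cd14, Hmox1, Calca, Hbegf, Atf3 and Gadd45g, from -4.31 to -3.12. Sdc1, a cell-surface proteoglycan, was 3.84 to 5.20 with blockers, against 6.08 to 10.45 with albumin (-3.44 ± 0.95, or -2.19 without albumin replicate 2). Calca, which encodes calcitonin and the neuropeptide CGRP, was 4.43 to 8.82, against 9.11 to 11.46, and Hbegf, an epidermal growth factor receptor ligand, was 3.17 to 6.27, against 7.39 to 10.12. These genes have different known roles, and no theme was tested over the 12.

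Cxcl1, a chemokine that draws neutrophils, had the largest difference of all non-overlapping genes, at 2.46, 2.52, 2.48 and 2.47 with blockers, against 7.15, 5.15 and 8.09 with albumin and 2.50 and 2.52 in sham. Every blocker array sat at the sham level, and the difference was -4.31 ± 0.57 (limma adjusted p = 0.074). Ccl2, which draws monocytes, kept a middle position with 8.76, 9.29, 9.46 and 6.66 with blockers, against 10.97, 13.47 and 11.85 with albumin and 2.52 and 4.71 in sham (-3.55 ± 0.87). Ccl7, a related chemokine, was 2.59 to 6.37 with blockers, against 6.95 to 10.60 with albumin (-3.80 ± 1.10). Il6 was 2.22 to 2.25 with blockers, against 2.25, 4.41 and 5.55 with albumin, so the groups all but met at albumin replicate 1. Il1b, 3.06 to 3.31 with blockers, was 3.53, 4.59 and 9.47 with albumin. Albumin replicate 3 weighed on both: the difference of Il6 was -1.84, or -1.10 without that array, and that of Il1b was -2.72, or -0.92.

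Of the 31 chemokine and cytokine ligands on the list, 16 passed the filter. Of these, 10 (62.5%) were lower with blockers at an unadjusted p under 0.05 and 1 (6.25%), Il33, was higher. All tested genes gave 9.04% and 7.56%. The list's median was -1.82, or -2.19 without albumin replicate 2 and -1.01 without albumin replicate 3. Of the 16, 7 exceeded 4 on the albumin arrays alone, among them Cxcl1, Il6 and Il1b, and 5 of these 7 are among the 10 lower genes, so the count describes the list without supporting more. All 4 tested markers of the neutrophil and lymphocyte list lay below 0, but 0 reached an unadjusted p under 0.05. They were S100a8, S100a9, Mmp9 and Csf3r, and no lymphocyte marker was tested. The mean of the 4 was 5.07, 5.09, 6.73 and 4.30 with blockers, against 6.32, 6.78 and 8.83 with albumin and 3.31 and 4.33 in sham. The part of those cells in the chemokine result was not tested.

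Feedback genes of inflammatory signalling also leaned lower. Socs3, which restrains JAK-STAT signalling, had 2.36, 2.25, 3.98 and 2.23 with blockers, against 5.38, 7.65 and 6.03 with albumin and 2.33 and 2.35 in sham (-3.65 ± 0.59; limma adjusted p = 0.0803). Blocker replicate 3 alone stood above the sham level. All blocker and sham signals of Socs3 lay below 4, so it entered the test through the albumin arrays. Stat3 was 10.06, 10.53, 10.55 and 8.98 with blockers, against 11.93, 11.65 and 11.44 with albumin and 8.79 and 9.26 in sham (-1.64 ± 0.37), and both of its probe sets gave a negative difference. Zfp36, which destabilises cytokine messages (-2.85 ± 0.49), and Bcl3, a regulator of NF-κB (-2.76 ± 0.57), did not overlap between groups. Of 12 NF-κB genes, 8 were lower and 0 higher at an unadjusted p under 0.05, with a median of -0.62. Among the 20 genes of the interleukin-6 and JAK-STAT list, 7 were lower and 2 higher, with a median of -0.39. Leaving out albumin replicate 2 gave 7 lower and 0 higher, with a median of -0.15.

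Immediate early transcription factors, AP-1 among them, leaned lower, with 21 of 25 below 0. Fosl1, an AP-1 subunit, had 3.42, 3.64, 3.63 and 2.65 with blockers, against 6.12, 9.99 and 6.07 with albumin and 2.68 and 2.69 in sham (-4.06 ± 0.88; limma adjusted p = 0.119). Atf3, a stress-induced factor, was 2.08 to 2.74 with blockers, against 4.19, 8.06 and 4.98 with albumin (-3.22 ± 0.79, or -2.07 without albumin replicate 2). Fosl1 and Atf3 exceeded 4 on the albumin arrays alone. Myc was 5.57 to 7.45, against 8.05 to 9.81. Fos itself overlapped: it was 10.10, 10.45, 10.89 and 10.25 with blockers, against 10.66, 13.26 and 13.91 with albumin, so albumin replicate 1 lay within the blocker range. Klf6 was 9.58 to 10.20 with blockers, against 10.69 to 10.93 with albumin (-0.98 ± 0.16, limma adjusted p = 0.0813). Of 25 factors tested, 11 were lower and 0 higher at an unadjusted p under 0.05, and those 11 include both Fosl1 and Atf3. The share of all tested genes lower at that level was 9.04%.

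The median of the neuronal activity genes, though not the sign of the 2 named here, depended on a single array. Arc, a synaptic activity gene, was 9.80 to 11.31 with blockers, against 10.63 to 11.97 with albumin (-1.14 ± 0.43, or -0.91 without albumin replicate 2). Homer1, a synaptic scaffold, was higher at 11.66 to 11.84, against 11.29 to 11.50 (0.37 ± 0.09, or 0.31 without albumin replicate 2). Across the 16 genes 1 was lower and 1 higher at an unadjusted p under 0.05, or 6.25% each way. All tested genes gave 9.04% and 7.56%. The median of -0.38 for the 16 became 0.14 without albumin replicate 2. Spry1, which restrains receptor tyrosine kinase signalling, was 4.96, 5.21, 5.22 and 4.81 with blockers, against 6.21, 7.28 and 6.65 with albumin (-1.66 ± 0.25; limma adjusted p = 0.0796). Of the 14 MAP kinase phosphatases and Sprouty-type regulators, 5 (35.7%) were lower and 1 (7.14%) higher at an unadjusted p under 0.05, with a median of -0.37. Only 1 was lower and 1 higher without albumin replicate 2, with a median of -0.21.

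Stress genes varied among the blocker animals. Hmox1, heme oxygenase, had 8.51, 8.77, 9.46 and 3.24 with blockers, against 10.59, 11.18 and 11.01 with albumin and 3.83 and 4.67 in sham (-3.43 ± 1.34). Blocker replicates 1 to 3 stood below the albumin range and far above sham, while replicate 4 stood below both shams. Gadd45g, a growth-arrest gene, was 7.46 to 9.02, against 9.85 to 12.24 (-3.12 ± 0.61). The difference of Hmox1 was -2.01 without blocker replicate 4. In this list of 24, 10 (41.7%) were lower and 1 (4.17%) higher at an unadjusted p under 0.05. The shares over all tested genes were 9.04% and 7.56%. The median of the 24 was -0.55. Without albumin replicate 2, 7 were lower and 0 higher, with a median of -0.35.

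Phagocyte activation genes leaned lower and markers of resting microglia split. Cd14, a co-receptor for bacterial lipopolysaccharide, was 6.49, 5.82, 8.22 and 3.82 with blockers, against 8.28, 10.43 and 9.83 with albumin and 2.38 and 6.28 in sham. Fcgr1a, an Fc receptor, was 5.52 to 6.11, against 6.78 to 8.14 (-1.71 ± 0.30). Lgals3, a galectin of activated phagocytes, was 8.37 to 9.88, against 11.13 to 12.50 (-2.30 ± 0.55). Of the 18 tested activation genes, 10 (55.6%) were lower and 2 (11.1%) higher at an unadjusted p under 0.05, with a median of -1.55. The shares over all tested genes were 9.04% and 7.56%. The 10 include Clec7a, which was above 4 on albumin arrays alone.

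P2ry12, the purine receptor that marks resting microglia, had 9.38, 8.84, 8.07 and 9.40 with blockers, against 7.62, 6.26 and 6.91 with albumin and 9.20 and 9.42 in sham (1.99 ± 0.39). Blocker replicates 1 and 4 lay within the sham range. Gpr34, another microglial receptor, was 7.15, 6.64, 6.36 and 7.10 with blockers, against 5.46, 5.04 and 5.08 with albumin (1.62 ± 0.21; limma adjusted p = 0.074). In the same list Fcrl2 (-1.28 ± 0.42) and P2ry6 (-1.09 ± 0.30), also microglial, were lower. The 13 genes divided into 3 higher and 3 lower at an unadjusted p under 0.05, or 23.1% each way. All tested genes gave 7.56% and 9.04%. Without albumin replicate 2, 3 of the 13 were higher and 1 lower, and their median of 0.22 was 0.09. Of 9 complement genes, 1 was lower at that level, near the 9.04% of all tested genes. It was C5ar1, the receptor of a complement fragment, at 2.55 to 3.72 with blockers, against 4.67 to 5.99 with albumin, and it too exceeded 4 on the albumin arrays alone. Of the 9, 3 were lower and 1 higher without albumin replicate 2.

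Interferon-response and antigen-presentation genes had 22 of 24 members below 0. At an unadjusted p under 0.05, 4 (16.7%) were lower and 0 higher, against 9.04% and 7.56% of all tested genes. The median of -0.44 was -0.12 without albumin replicate 3. Irf9, part of the interferon transcription complex, was 8.08 to 8.65 with blockers, against 8.81 to 9.72 with albumin (-1.05 ± 0.23).

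Astrocyte genes leaned lower or higher by list. Gfap, the intermediate filament of reactive astrocytes, had 14.10, 14.42, 14.33 and 13.64 with blockers, against 14.60, 14.61 and 14.52 with albumin and 12.70 and 13.91 in sham (-0.46 ± 0.29). The groups did not overlap, but the limma fit gave an unadjusted p of 0.151. That fit pools a gene's spread over the 3 groups. For Gfap the SD was 0.35 with blockers, 0.05 with albumin and 0.85 in sham. The difference was -0.30 without blocker replicate 4. Vim, vimentin, was 11.70 to 12.40, against 12.77 to 13.16 (-0.84 ± 0.18). Of 18 reactive genes, 7 (38.9%) were lower and 1 (5.56%), Synm, higher at an unadjusted p under 0.05. The shares over all tested genes were 9.04% and 7.56%. The median of the 18 was -1.09. Without albumin replicate 2, 4 were lower and 1 higher, with a median of -0.82, and the difference of Synm, an intermediate filament protein, was 0.71 in place of 1.07.

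The genes for potassium, water, glutamate and gap-junction handling leaned higher. Gjb6, a gap-junction connexin of astrocytes, was 9.90, 9.55, 9.73 and 10.38 with blockers, against 8.78, 6.52 and 8.44 with albumin and 10.52 and 10.19 in sham (1.98 ± 0.50, or 1.28 without albumin replicate 2). Gjb2, a second connexin, had the largest positive difference of all non-overlapping genes, with 6.39, 8.22, 7.32 and 9.28 with blockers, against 4.23, 3.25 and 5.56 with albumin (3.46 ± 0.73). Slc4a4, a sodium bicarbonate cotransporter, was 10.97 to 11.43, against 9.74 to 10.64 (0.91 ± 0.22). Of 21 tested members, 11 (52.4%) were higher and 0 lower at an unadjusted p under 0.05, against 7.56% and 9.04% of all tested genes. Of the 21, 20 lay above 0. The median of 0.50 was 0.25 without albumin replicate 2, with 18 above 0. Kcnj10, the main potassium channel of astrocytes, was at 0.83 ± 0.47, with overlapping arrays, or 1.25 without albumin replicate 1 and 0.49 without blocker replicate 2. Aqp4, the water channel, at 0.18 ± 0.13, and the glutamate transporters Slc1a2 and Slc1a3, at 0.07 ± 0.19 and 0.21 ± 0.11, lay below the list's median, and their arrays overlapped too.

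Several genes with the largest positive differences mark the meninges, the membranes over the cortex. Ogn (osteoglycin), a matrix proteoglycan, was 6.67, 7.47, 5.26 and 8.82 with blockers, against 4.28, 2.81 and 4.21 with albumin and 8.50 and 9.82 in sham (3.29 ± 0.80), and all 4 of its probe sets gave a positive difference. Slc6a20a, an amino acid transporter, was 8.38 to 10.83 with blockers, against 6.38 to 7.76 with albumin, and Ptgds, a prostaglandin synthase, 12.71 to 13.98, against 11.58 to 12.39. Of 15 tested markers, 10 (66.7%) were higher and 0 lower at an unadjusted p under 0.05, against 7.56% and 9.04% of all tested genes. The median of the 15 was 1.52, or 1.35 without albumin replicate 2. The list's mean signal was 7.14, 8.13, 7.42 and 8.39 on the blocker arrays, against 6.47, 6.03 and 6.84 on the albumin arrays and 8.65 and 8.40 in sham. The list as a whole stood higher with blockers beside Gjb2, and its part in the values of Gjb2, Lox and the collagens was not tested. Among other tissues and cells, 2 choroid plexus, 2 red cell and 7 striatal markers were tested, and none of them reached that level in either direction. Of 17 oligodendrocyte and precursor markers, 2 (11.8%) were higher and 1 (5.88%) lower, near the shares over all tested genes, with a median of 0.10.

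Vessel and matrix genes were mixed. Angpt2, which destabilises vessels, was 4.94, 6.07, 7.43 and 5.28 with blockers, against 8.35, 7.62 and 8.76 with albumin and 4.51 and 4.37 in sham (-2.32 ± 0.56). Sele, an adhesion molecule for leukocytes, was 2.63 to 2.84, against 3.26, 6.28 and 5.70, and was above 4 on albumin arrays alone. Col4a1 and Col4a2, chains of basement membrane collagen, were lower (-1.59 ± 0.33 and -1.21 ± 0.28), while Abcg2, an efflux pump of the barrier, was higher at 6.97 to 8.42, against 6.09 to 6.93 (1.19 ± 0.33). Endothelial, barrier and pericyte genes divided into 6 lower and 6 higher of 24 at an unadjusted p under 0.05, and matrix genes into 5 and 5 of 27. Of the proteases and their inhibitors, Adamts9 was 3.41 to 4.08 with blockers, against 5.75 to 8.13 with albumin (-3.01 ± 0.52), whereas Timp4, an inhibitor, was higher (1.31 ± 0.25). That list had 5 of 18 lower and 2 higher. The 5 include Adam8, which was above 4 on albumin arrays alone. Over all tested genes, 9.04% were lower and 7.56% higher at that level.

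Neuronal genes shifted by little. Pvalb, a marker of fast-spiking interneurons, was 11.51 to 11.85 with blockers, against 10.97 to 11.50 with albumin (0.45 ± 0.14), and Kcnip1, a partner of potassium channels, was 9.52 to 9.72, against 8.81 to 9.12 (0.63 ± 0.14). Dlg4, the postsynaptic scaffold PSD-95, was 9.72 to 9.96, against 8.96 to 9.40 (0.60 ± 0.15). At an unadjusted p under 0.05, 3 of 30 glutamate genes, 5 of 23 GABA and interneuron genes and 5 of 32 channel genes were higher, and 0 were lower in each list. Over all tested genes 7.56% were higher at that level. The higher genes numbered 1, 5 and 3 without albumin replicate 2. The medians of 0.22, 0.20 and 0.19 for the 3 lists were 0.09, 0.06 and 0.11 without albumin replicate 2. For the 18 general neuronal markers none reached that level in either direction, and their median of 0.13 was -0.01 without that array.

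The families of both genes past the threshold were mixed. Of 15 RGS genes, Rgs16 and Rgs1 were lower and 4 were higher at an unadjusted p under 0.05, among them Rgs7, which acts in neurons, at 11.70 to 11.93 with blockers, against 11.22 to 11.50 with albumin (0.42 ± 0.10). Rgs1 was above 4 on albumin arrays alone. The RGS list's median of 0.27 was 0.03 without albumin replicate 2. In choline, betaine and folate metabolism, 6 of 17 were lower and 1 higher, and the median of -0.20 was -0.10 without albumin replicate 1. The 6 include Chdh and Mthfd2, which were above 4 on albumin arrays alone, so the count only describes the list. Over all tested genes, 9.04% were lower and 7.56% higher at an unadjusted p under 0.05. Mthfd2, a mitochondrial folate enzyme, was 2.26 to 2.35 with blockers, against 4.24, 4.12 and 2.73 with albumin (-1.41 ± 0.33), and Shmt2, which feeds it, was 8.22 to 8.82, against 8.96 to 9.60 (-0.64 ± 0.19).

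**Figure D4:**
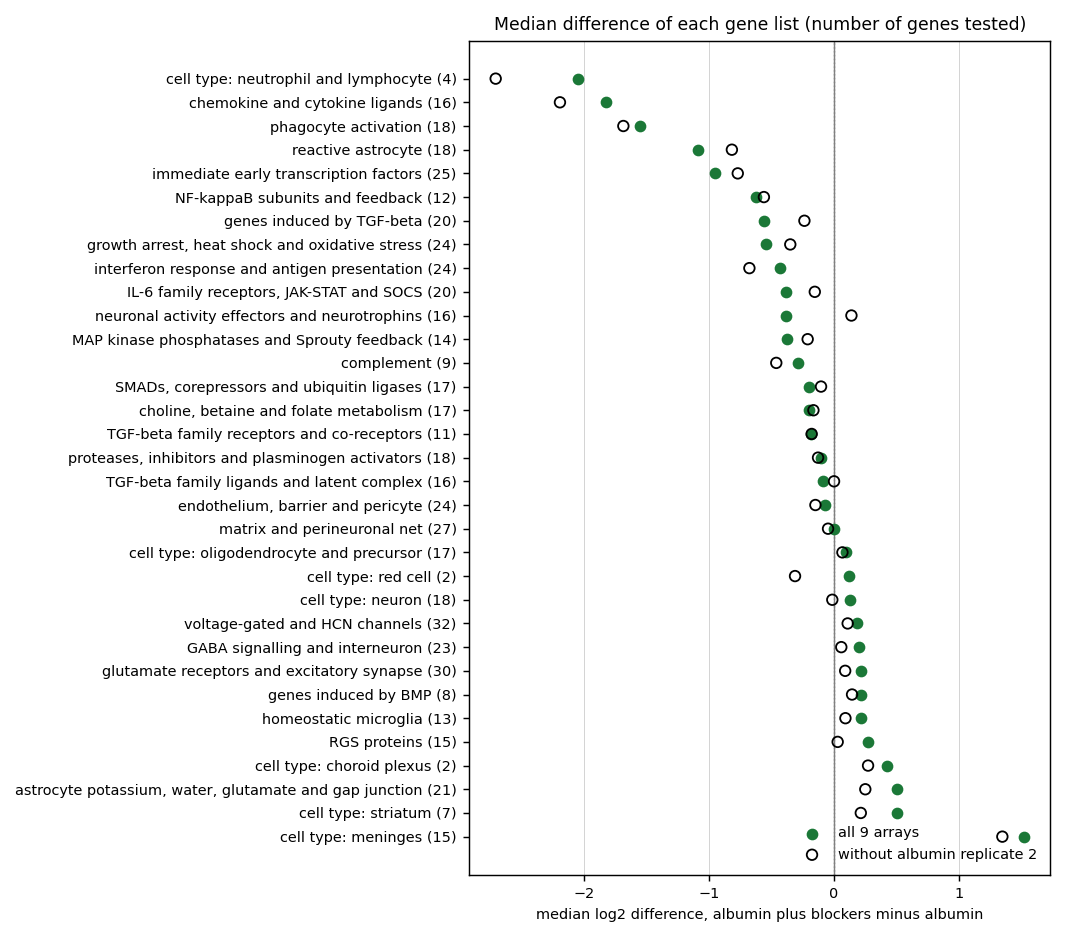
Median log2 difference of albumin plus blockers minus albumin (horizontal axis) for each gene list, with all 9 arrays (filled) and without albumin replicate 2 (open); the number of genes tested is in brackets. Medians run from -2.05 for 4 neutrophil and lymphocyte markers to 1.52 for 15 meningeal markers, and the median over all genes is -0.003. The neuronal activity, red cell and neuron lists change side without albumin replicate 2, as do the ligand and matrix lists, which lie near 0.

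The 4 blocker animals were not alike. Among the 146 genes at least 2-fold lower without overlap, blocker replicate 4 was the farthest from albumin for 95 and replicate 3 the nearest for 87. Among the 91 at least 2-fold higher, replicate 4 was the farthest for 60. The genes chosen by albumin in set 1 gave a like picture: the median distance of the 466 higher genes from the albumin mean was -0.83, -0.69, -0.47 and -1.08 on blocker replicates 1 to 4. For phagocyte activation genes it was -1.38, -1.63, -0.94 and -2.04, and for reactive astrocyte genes -1.10, -0.87, -0.30 and -1.92. Over all genes the median SD was 0.142 in the blocker group and 0.238 in the albumin group. Within the albumin group it was 0.226 without replicate 1, 0.108 without replicate 2 and 0.255 without replicate 3, each over 2 arrays.

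**Figure D5:**
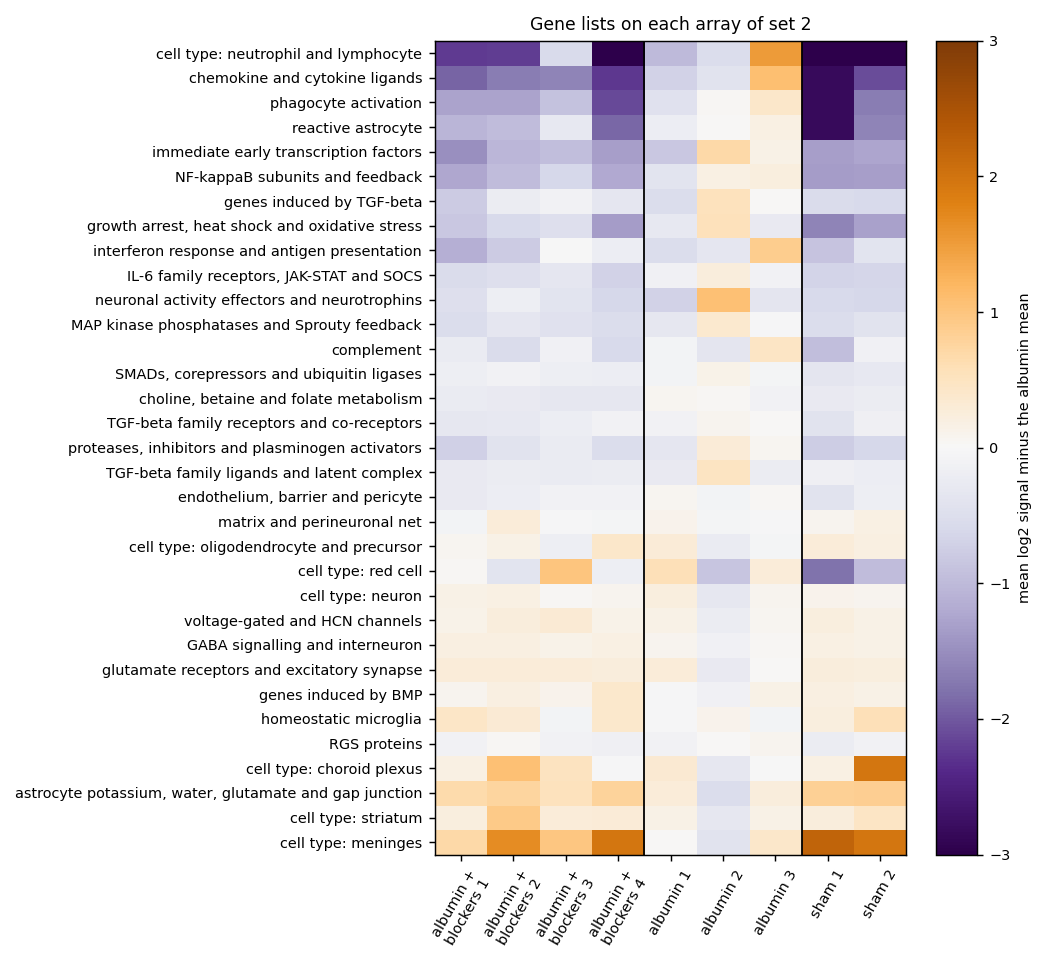
Mean log2 signal of each gene list on each of the 9 arrays of set 2, as the distance from the albumin mean (colour, purple below and orange above; columns are albumin plus blockers, albumin and sham; the colour scale ends at 3 units). Blocker replicate 4 is the most purple of its group for the neutrophil, chemokine, phagocyte and reactive astrocyte lists, and albumin replicates 2 and 3 differ in which lists they exceed.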

How the data were processed

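Gene expression was measured on Affymetrix arrays of rat cortex, 1 colour and 1 rat per array. The deposited values are log2 signals per probe set, which, per the submitters' processing notes, the authors computed by GCRMA; the version used is not given in the sources used here. This method corrects background, normalises by quantiles and summarises probes, and it can compress signals near its lower limit. No detection calls were used, so a signal below 4 is a fitted value and not a measured absence. Precision is limited by how many arrays there are.

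Of 31099 probe sets, 57 were controls, 20826 named 1 gene, 436 several and 9780 none, by the platform annotation; 20758 were matched to the GRCr8 gene table by Entrez identifier and 2 by accession, and 66 kept the platform's symbol. Where a gene had several, the one brightest on average across the 19 arrays was used. Linear models (limma 3.58.1, lmFit with eBayes, two-sided, under R 4.3.3) were fitted to the 9 arrays of set 2 with 3 groups sharing 1 spread, and p was adjusted by Benjamini-Hochberg over 10329 genes. Positive differences are higher with blockers. The fit was tested on simulated data. Tables and plots used Python 3.11.15, numpy 2.4.6, pandas 2.3.3, scipy 1.17.1 and matplotlib 3.10.9.

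Genes chosen for naming were those past the threshold and the 12 largest differences each way among non-overlapping genes with an unadjusted p under 0.05. Added to these were up to 4 members of each of 33 lists with the smallest p, and 26 pathway and marker genes. Values are given for part of them. Some genes are named only because a list's count turns on them (Lox, Col1a2, Rgs1, Il33). The members and lists were chosen with earlier results of these data known, so they are descriptions. Alternatives changed the arrays fitted, the filter, the probe set, the scaling and the fold, or left out each array.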

Additional observations from a re-analysis of the deposited data

Results flagged for a closer look

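In 47 named genes the highest or lowest blocker array was compared with the range of its 4 arrays, and 4 genes had an array far from the rest, where chance marks about 1 in 20 groups. Chdh was 3.22 in blocker replicate 4, against 3.43 to 3.46 in the other 3. Hmox1 was 3.24 in blocker replicate 4, against 8.51 to 9.46. Rgs16 was 5.61 in blocker replicate 3, against 5.24 to 5.25, which put it nearest to the albumin arrays. Socs3 was 3.98 in blocker replicate 3, against 2.23 to 2.36.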

How the results depend on the processing

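The number of genes past the threshold was 2 with the reported fit. It was 0 with only the 7 arrays of the 2 groups, 0 with eBayes with trend and robust, 0 with a mean log2 above 5, 1 with no filter (Chdh), 5 with the probe set of largest variance, 5 with arrays centred on their median and 31 with all 19 arrays and a set term; the cause was not tested. Leaving out 1 array gave 0 to 28. Without albumin replicate 1, 2 or 3 it was 28, 8 or 12, without blocker replicate 3 it was 6, and it was 0 without blocker replicate 1, 2 or 4 or either sham. The replicate block gave 0 genes past the threshold. Same-numbered blocker and albumin arrays correlated at 0.223, 0.219 and 0.05 in their deviations, against -0.26 to 0.185 for differently numbered ones. The labels give no pairing, so the numbers were not taken as pairs. Whether they mark pairs was not tested. Non-overlapping genes numbered 900 lower and 756 higher, and 1023 to 1538 and 866 to 1378 with 1 array left out, since fewer arrays overlap less often. The median of the genes 2-fold higher in set 1 was -1.32 for albumin and -1.23 for TGF-β1 at 4-fold in place of 2-fold, and with 1 array left out it ran from -0.89 to -0.62 and from -0.85 to -0.61. For the genes 2-fold lower it was 1.24 for albumin at 4-fold, and -0.15 for TGF-β1 at 8, 24 and 48 h, and with 1 array left out from 0.35 to 0.81 and from 0.16 to 0.54, the lowest without albumin replicate 2. Of 2943 named gene and setting pairs, 15 reversed, in 8 genes that did not pass. With 1 array left out, Alas2 ran from -0.500 to 0.489, Hbb from -0.121 to 0.350, Ccn2 from -0.131 to 0.085, Slc1a2 from -0.074 to 0.316, Tgfbr1 from -0.122 to 0.442 and Ttr from -0.074 to 0.887. Tgfbr1 was -0.033 with the replicate block. With the probe set of largest variance, Foxp1 was -0.238 and Slc1a3 -0.362.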
